A study of Mus musculus with 9 samples.

Results

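mmu-miR-142a-3p, mmu-miR-142a-5p, mmu-miR-223-3p and mmu-miR-150-5p are the 4 mature miRNAs described here, out of 1448 listed in small RNA libraries of mouse hippocampus. They were chosen by name, as miRNAs of white blood cells and of microglia, the resident macrophages of the brain. All 4 passed the filter on low counts and were among the 628 miRNAs tested. The libraries came from male C57BL/6J mice in 3 groups, with 3 libraries in each. The saline group received 0.9% saline. The LPS group received a single intraperitoneal injection of 1 mg/kg lipopolysaccharide (LPS), a bacterial endotoxin that provokes inflammation, and, by the labels, 0.12% saline. The LPS + GAS group received the same LPS dose and 100 mg/kg gastrodin (GAS), a phenolic glucoside of the orchid Gastrodia elata, which the labels place 1 h after LPS. The methods also describe the drug as given together with LPS, and elsewhere it is placed before LPS, so the order of the injections was not settled by the sources used here. Each library was made from whole hippocampus. In such bulk tissue, fewer cells of a type and less RNA per cell cannot be told apart.

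A miRNA is cut from a hairpin-shaped precursor whose 2 arms, 5p and 3p, can each leave a mature strand. The strand is loaded into an Argonaute protein and guides it to messenger RNAs, mainly through the seed, bases 2 to 8. The miR-142 gene is expressed across blood cell lineages and in microglia, and both of its arms are used. MiR-223 is best known from neutrophils and other myeloid cells, where it restrains inflammatory signalling, and miR-150 from mature lymphocytes, where it controls the transcription factor Myb.

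The 4 sequences are shown because the seeds show that no member shares a target code with another. Capitals mark the seed, and the strands are written 5′ to 3′ as in the deposited table.
mmu-miR-142a-3p: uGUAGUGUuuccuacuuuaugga
mmu-miR-142a-5p: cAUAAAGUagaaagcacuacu
mmu-miR-223-3p: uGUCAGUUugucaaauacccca
mmu-miR-150-5p: uCUCCCAAcccuuguaccagug
The 4 seeds differed from each other, and 0 other rows of the deposited table had the seed of any of them. The other rows nearest in sequence to each member differed from it at 8 or more of the 20 or 21 bases compared, so reads of the members are not shared with a near-identical row. GC content was 33.3% to 40.9% in the miR-142a and miR-223 strands and 54.5% in mmu-miR-150-5p.

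The miR-142a strands lie on opposite arms of the 64-base Mir142 hairpin, at chr11:87756864-87756927 on the plus strand of GRCm38. The hairpin, from RefSeq on GRCm38.p6, is printed because both arms were counted, with each arm in capitals.
Mir142 hairpin: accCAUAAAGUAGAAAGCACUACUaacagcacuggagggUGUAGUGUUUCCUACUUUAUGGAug
In GENCODE M21 the hairpin falls in an intron of the long non-coding RNA gene Mir142hg. The nearest protein-coding gene, Tspoap1, starts 3614 bp away. Mir142b is annotated on the opposite strand, and its product mmu-miR-142b is complementary to mmu-miR-142a-3p over all of its 20 bases. It was nearly silent, with 0 to 3 reads per library. Mir223 lies at chrX:96242817-96242926 on the plus strand, in an exon of the non-coding transcript F630028O10Rik, 4277 bp from Vsig4, which encodes a complement receptor of macrophages. Mir150 lies at chr7:45121757-45121821 on the plus strand, in no other annotated gene.

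The libraries held 10119758 to 11457656 reads on miRNAs each, so 10 reads correspond to about 1 CPM (counts per 1e6 reads). Levels below are CPM after scaling by edgeR's TMM factors, and errors are SDs of 3 libraries. The TMM factors ran from 0.914 to 1.19, the highest being that of LPS replicate 2. Neural tissue, of no particular region, was visible in the neuronal list (miR-124-3p, miR-9-5p and 3 others), which summed to 107100 to 143300 CPM in every library. Of the 4 members, 3 had their lowest level in LPS replicate 2, and values without it are given where they differ most. For mmu-miR-142a-3p this rested on the scaling. Its unscaled share of reads was lowest in saline replicate 3 (98 reads, against 109 in LPS replicate 2).

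The members fell into 2 classes of abundance. mmu-miR-150-5p averaged 4795 CPM over the 9 libraries and ranked 35 of 628, while mmu-miR-142a-3p averaged 14.6 CPM (rank 350), mmu-miR-142a-5p 13.6 CPM (rank 354) and mmu-miR-223-3p 8.39 CPM (rank 385). Reads of mmu-miR-150-5p exceeded those of mmu-miR-142a-3p 198-fold to 497-fold, with a median of 341-fold. mmu-miR-142a-3p exceeded mmu-miR-223-3p in 9 of 9 libraries, by 1.29-fold to 3.87-fold. The 2 miR-142a strands could not be ordered, the 3p strand being higher in 6 of 9 libraries. Differences in ligation and amplification between sequences enter any level set between miRNAs, and their part here was not tested.

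mmu-miR-142a-3p was measured at 14.9, 14.7 and 9.88 CPM after saline, 14.6, 9.06 and 18.5 CPM after LPS, and 19.4, 11.7 and 18.3 CPM after LPS with gastrodin, each in the order of replicate number. All 3 groups overlapped, and the spread inside the LPS group covered nearly the whole range of the series. The group means were 13.2 ± 2.84 CPM for saline, 14.1 ± 4.75 CPM for LPS and 16.5 ± 4.15 CPM for LPS + GAS (SD, n = 3). These values stand on 98 to 208 reads per library.

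mmu-miR-142a-5p, the partner strand, was measured at 11.1, 12.2 and 11.1 CPM after saline, 13.7, 7.06 and 18.7 CPM after LPS, and 15.5, 9.51 and 23.9 CPM after LPS with gastrodin. The saline libraries lay close together, and each other group had members above and below them. The means were 11.5 ± 0.647 CPM for saline, 13.2 ± 5.84 CPM for LPS and 16.3 ± 7.23 CPM for LPS + GAS (SD, n = 3), from 85 to 248 reads per library.

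mmu-miR-223-3p was measured at 11.1, 6.90 and 4.03 CPM after saline, 3.78, 5.90 and 7.24 CPM after LPS, and 15.03, 7.38 and 14.2 CPM after LPS with gastrodin. The LPS and LPS + GAS groups did not overlap, but their nearest libraries held 72 and 73 reads, and saline spanned the gap between them. The means were 7.34 ± 3.55 CPM for saline, 5.64 ± 1.74 CPM for LPS and 12.2 ± 4.19 CPM for LPS + GAS (SD, n = 3). It was the least counted member, with 38 to 161 reads per library.

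mmu-miR-150-5p was measured at 5288, 5007 and 4906 CPM after saline, 5045, 2547 and 6182 CPM after LPS, and 5548, 5006 and 3622 CPM after LPS with gastrodin. The lowest and the highest library of the whole series were both in the LPS group. The means were 5067 ± 198 CPM for saline, 4591 ± 1859 CPM for LPS and 4725 ± 993 CPM for LPS + GAS (SD, n = 3), from 30665 to 61458 reads per library.

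**Figure D1:**
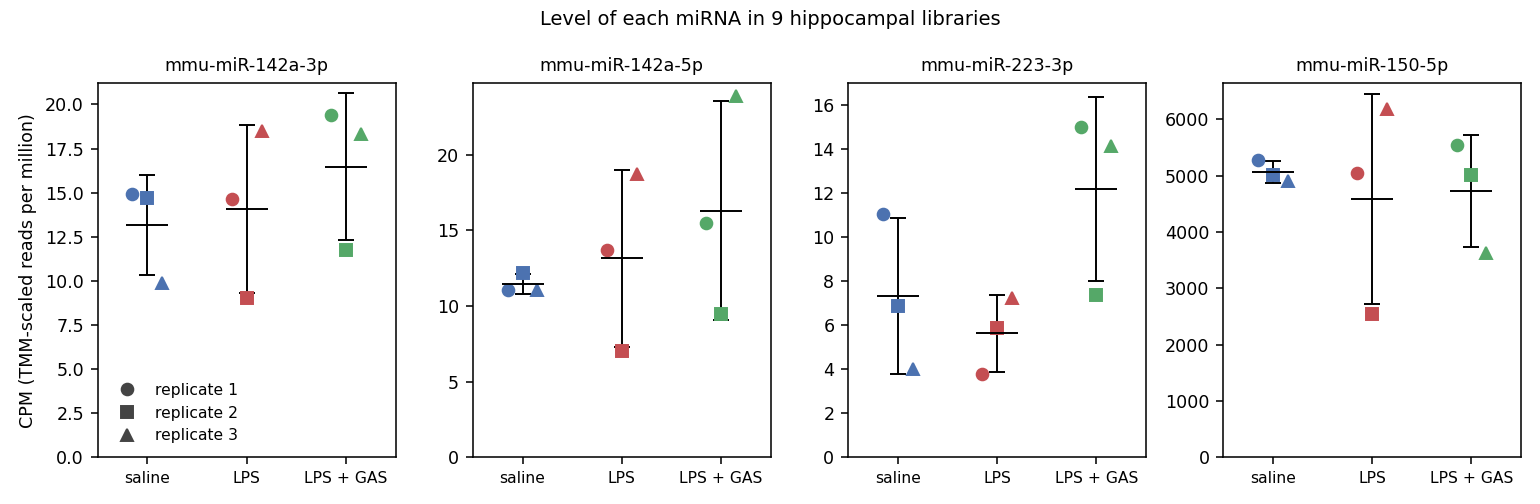
Level of each miRNA in CPM (linear axis from 0) by group, with 1 point per library shaped by replicate number, a bar at the group mean and error bars of 1 SD (n = 3). The groups overlap in every panel except LPS against LPS + GAS for mmu-miR-223-3p, where the nearest libraries stand at 7.24 and 7.38 CPM.

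The spread between libraries was larger than counting error for all 4. For mmu-miR-150-5p the coefficient of variation within groups was 26.4%, against 0.458% from counting alone. For the miRNAs with few reads it was 27.3% against 8.35% (mmu-miR-142a-3p), 36.4% against 8.82% (mmu-miR-142a-5p) and 38.6% against 11.9% (mmu-miR-223-3p). Tested miRNAs within 2-fold of each member's level had median values of 17.9% to 25.2%, and 68.0% to 80.7% of them varied less than the member.

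The first comparison asks what LPS did. In LPS vs saline the log2 fold change was 0.09 ± 0.318 (SE) for mmu-miR-142a-3p, 0.20 ± 0.396 for mmu-miR-142a-5p, -0.38 ± 0.415 for mmu-miR-223-3p and -0.14 ± 0.293 for mmu-miR-150-5p. None of the 4 passed the test, which asked for a 2-fold change either way at an adjusted p no higher than 0.05 (edgeR's quasi-likelihood test, Benjamini-Hochberg adjusted p = 0.992 for each). That call was met by 0.0% of the 628 miRNAs tested. The 95% confidence intervals ran from -0.62 to 0.81 for mmu-miR-142a-3p, from -0.69 to 1.08 for mmu-miR-142a-5p, from -1.31 to 0.55 for mmu-miR-223-3p and from -0.80 to 0.51 for mmu-miR-150-5p. A 2-fold change therefore lies outside the interval in both directions only for mmu-miR-142a-3p and mmu-miR-150-5p. The direction rested on single libraries for all 4. Without LPS replicate 2 the value of mmu-miR-150-5p was 0.18, and without LPS replicate 3 those of mmu-miR-142a-3p and mmu-miR-142a-5p were -0.15 and -0.14. Without saline replicate 3 mmu-miR-142a-3p stood at -0.07, and without saline replicate 1 mmu-miR-223-3p stood at 0.09. Groups did not overlap for 0 of the 4 members and for 3.82% of the miRNAs tested, and an unadjusted p under 0.05 was reached by 0 of 4 and by 2.39% (edgeR).

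The second comparison asks what gastrodin added to LPS. In LPS + GAS vs LPS, mmu-miR-223-3p had a fold of 2.16, a log2 fold change of 1.11 ± 0.414 (SE) with a 95% confidence interval from 0.18 to 2.04. It was higher in 9 of 9 pairs of libraries. It did not pass the test over all miRNAs (edgeR, unadjusted p = 0.0238, adjusted p = 0.903), and the exact two-sided permutation test gave p = 0.1, the smallest value that 3 against 3 libraries allow. Over the alternatives and left-out libraries its log2 fold change ran from 0.89 to 1.37 and its adjusted p from 0.416 to 0.996. The other members had log2 fold changes of 0.23 ± 0.318 (mmu-miR-142a-3p), 0.31 ± 0.395 (mmu-miR-142a-5p) and 0.04 ± 0.293 (mmu-miR-150-5p), with adjusted p-values up to 0.996 (edgeR). Without LPS replicate 2 the values of mmu-miR-142a-3p and mmu-miR-142a-5p were 0.0010 and 0.0087, and without LPS replicate 3 they were 0.48 and 0.65. The value of mmu-miR-142a-3p was 0.10 without LPS + GAS replicate 1 and 0.43 without LPS + GAS replicate 2. That of mmu-miR-142a-5p was 0.58 without LPS + GAS replicate 2 and -0.05 without LPS + GAS replicate 3, and that of mmu-miR-150-5p was -0.23 without LPS replicate 2, -0.07 without LPS + GAS replicate 1 and -0.0016 without LPS + GAS replicate 2.

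Read against the background, 1 of the 4 members had groups that did not overlap and 8.6% of the 628 miRNAs did, 1 of 4 had an unadjusted p under 0.05 and 3.66% of all did, and 0 of 4 were called and 0.0% of all were (edgeR; 23 miRNAs in all at an unadjusted p under 0.05). The median log2 fold change of the members was 0.27, and that of all tested miRNAs 0.003.

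Values for markers of other cells in this comparison are set beside that of mmu-miR-223-3p. All 5 red blood cell miRNAs (miR-451a, miR-144-3p, miR-144-5p, and miR-486a-5p and miR-486b-5p, which have the same counts) had log2 fold changes above 0, with a median of 1.04, and their summed level was 2189 to 3274 CPM in LPS, 4606 to 6222 CPM in LPS + GAS and 2065 to 4317 CPM in saline. MiR-451a, which red cell precursors make in large amounts, had a log2 fold change of 1.04 ± 0.292 (edgeR, adjusted p = 0.903). All 9 miRNAs of the choroid plexus and ependyma, the secretory and ciliated linings of the ventricles, were above 0 as well, with a median of 1.70 that was 0.71 without LPS + GAS replicate 1. Their summed level was 9370 to 22100 CPM in LPS and 11960 to 56480 CPM in LPS + GAS. No member of either list was called and none was at 0 in all libraries. Groups did not overlap for 1 of the 5 and for 1 of the 9, against 8.6% of the miRNAs tested. The vascular list (miR-126a and miR-143 among 4) had a median of 0.19 and the neuronal list one of -0.07. The part of blood or of choroid plexus in the value of mmu-miR-223-3p was not tested.

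**Figure D2:**
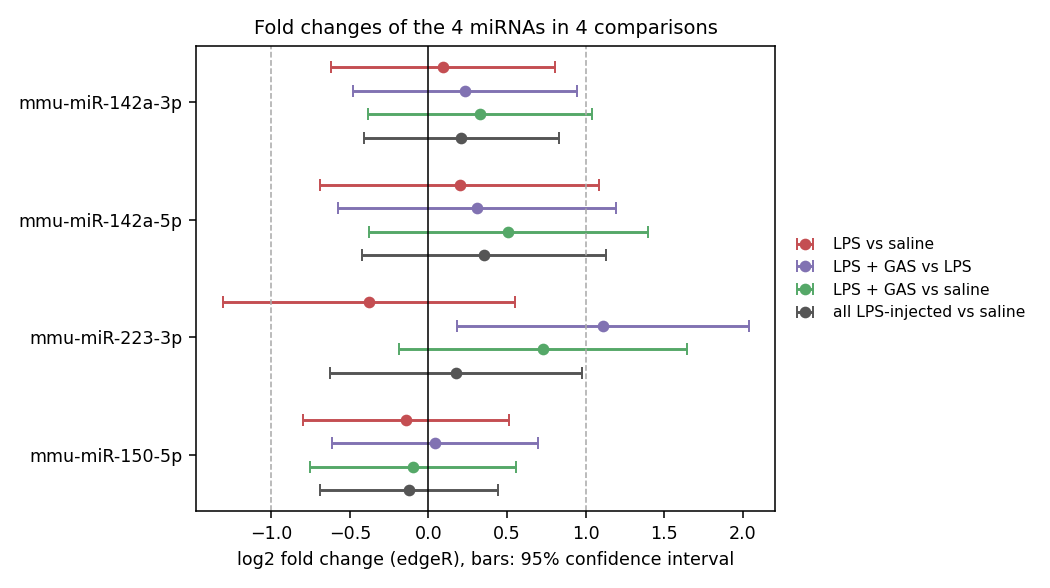
Log2 fold changes of the 4 miRNAs in the 4 comparisons (horizontal axis), with points at the edgeR estimate and bars over the 95% confidence interval; dashed lines mark a 2-fold change either way. Only the interval of mmu-miR-223-3p in LPS + GAS vs LPS, from 0.18 to 2.04, lies off 0.

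The remaining comparisons set treated mice against saline, and share those 3 saline libraries with the first. In LPS + GAS vs saline the log2 fold changes were 0.33 ± 0.318 (SE) for mmu-miR-142a-3p, 0.51 ± 0.396 for mmu-miR-142a-5p, 0.73 ± 0.409 for mmu-miR-223-3p and -0.10 ± 0.293 for mmu-miR-150-5p. Each adjusted p was 0.998 (edgeR). mmu-miR-223-3p was higher in 8 of 9 pairs of libraries, with an interval from -0.19 to 1.65. Its value was 1.19 without saline replicate 1 and 0.44 without saline replicate 3. mmu-miR-142a-3p stood at 0.16 without saline replicate 3 and 0.52 without LPS + GAS replicate 2, mmu-miR-142a-5p at 0.78 without LPS + GAS replicate 2 and 0.18 without LPS + GAS replicate 3, and mmu-miR-150-5p stood at 0.12 without LPS + GAS replicate 3. Of the 4 members 0 were called, 0 had groups that did not overlap and 0 reached an unadjusted p under 0.05, against 0.159%, 7.32% and 3.34% of the miRNAs tested.

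With both LPS-injected groups against saline, the values were 0.21 ± 0.278 for mmu-miR-142a-3p, 0.35 ± 0.347 for mmu-miR-142a-5p, 0.18 ± 0.359 for mmu-miR-223-3p and -0.12 ± 0.253 for mmu-miR-150-5p (SE, adjusted p = 0.997 for each by edgeR). The members again numbered 0 for each of the 3 criteria, against 0.159% called, 1.27% with groups that did not overlap and 2.87% at an unadjusted p under 0.05. mmu-miR-223-3p stood at -0.11 without saline replicate 3, and mmu-miR-150-5p at 0.06 without LPS replicate 2 and at 0.0096 without LPS + GAS replicate 3. The miRNA called in these 2 comparisons was miR-21a-3p, a passenger strand of a miRNA induced in inflammation. Its log2 fold change was 3.04 in LPS + GAS vs saline (adjusted p = 0.00151) and 2.38 in all LPS-injected vs saline (adjusted p = 0.00601).

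The 2 arms of the Mir142 hairpin allow a measure that no normalization touches. The 3p arm gave 57.4%, 54.6% and 47.1% of miR-142a reads after saline, 51.6%, 56.2% and 49.7% after LPS, and 55.6%, 55.2% and 43.4% after LPS with gastrodin. The arms printed above were thus counted nearly equally, with 1374 reads of 3p and 1281 reads of 5p over the 9 libraries. Differences in ligation and amplification between the 2 strands enter this share, and their part was not tested. The exact 95% binomial interval, which covers counting error only, left out equal counts in 3 of 9 libraries, with 3p above in 2 of them and, in LPS + GAS replicate 3, below (38.7% to 48.2%). Group means were 53.0% ± 5.30 in saline, 52.5% ± 3.32 in LPS and 51.4% ± 6.96 in LPS + GAS (SD, n = 3). The share did not differ beyond this spread in any comparison, with exact two-sided permutation p-values of 0.9 for LPS vs saline, 0.8 for LPS + GAS against LPS, 0.7 for LPS + GAS against saline and 0.81 for all LPS-injected libraries. The smallest p that 6 against 3 libraries allow is 0.0238.

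**Figure D3:**
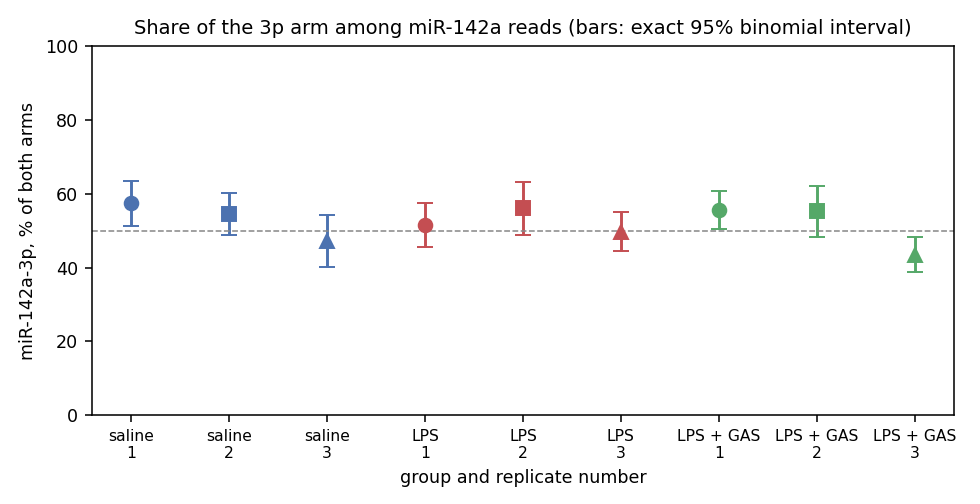
Share of mmu-miR-142a-3p among all miR-142a reads in each library (percent, axis from 0 to 100), with exact 95% binomial intervals and a dashed line at 50%. The 9 libraries lie between 43.4% and 57.4%, and the 3 libraries numbered 3 are the ones below the line.

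The other hairpins were one-sided. mmu-miR-223-5p, the passenger of mmu-miR-223-3p, had 0 to 5 reads per library. mmu-miR-150-3p, the passenger of mmu-miR-150-5p, had 29, 17 and 25 reads after saline, 12, 16 and 7 after LPS, and 5, 15 and 5 after LPS with gastrodin. It had the lowest log2 fold change after LPS of the leukocyte miRNAs tested. In LPS vs saline, where groups did not overlap for 3.82% of the miRNAs tested, its LPS libraries all lay below its saline libraries in CPM. Its log2 fold change was -1.05 ± 0.460 (SE) in LPS vs saline (edgeR, adjusted p = 0.992), -1.46 ± 0.480 in LPS + GAS vs saline (adjusted p = 0.998) and -1.25 ± 0.392 in all LPS-injected vs saline (adjusted p = 0.997). It passed the test in none of them. Its unadjusted p was under 0.05 in each (edgeR), as for 2.39%, 3.34% and 2.87% of the miRNAs tested. The exact two-sided permutation test on its level, with no adjustment, gave p = 0.1, 0.2 and 0.0476 in the same order. The strand made with it, mmu-miR-150-5p, was at -0.14, -0.10 and -0.12 there. As a percentage of the hairpin's reads, the 3p strand stood at 0.0300% to 0.0524% in saline, 0.0114% to 0.0522% in LPS and 0.00841% to 0.0303% in LPS + GAS. The groups overlapped on this scale, and the exact permutation p-values were 0.3, 0.2 and 0.143 for the same 3 comparisons.

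Beside the members, a list of 12 other leukocyte and macrophage miRNAs was followed, and 7 of them passed the filter. None was called in any comparison. The 5 that did not pass were mmu-miR-142b, mmu-miR-223-5p, miR-147-3p with 0 to 5 reads, and both strands of miR-511, which lies in the gene of the macrophage mannose receptor (miR-511-3p with 2 to 17 reads and miR-511-5p with 0 to 3). In LPS vs saline 3 of the 7 had log2 fold changes above 0 and the median was -0.01, in LPS + GAS vs LPS 5 of 7 with a median of 0.17, in LPS + GAS vs saline 5 of 7 with a median of 0.11, and in all LPS-injected vs saline 4 of 7 with a median of 0.07. The medians over all 628 miRNAs were -0.04, 0.003, -0.03 and -0.04.

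Within that list, the NF-kB targets that restrain inflammation stayed near 0 in LPS vs saline, miR-146a-5p at -0.01 ± 0.217 and miR-146b-5p at 0.16 ± 0.161 (log2 fold change and SE). MiR-155-5p, which activated macrophages induce, was at 6.40, 3.18 and 7.56 CPM in saline, 5.57, 4.15 and 8.05 CPM in LPS, and 11.9, 10.1 and 9.54 CPM in LPS + GAS. Its LPS + GAS libraries lay above all others, as log2 fold changes of 0.83 ± 0.341 over LPS (edgeR, adjusted p = 0.903) and 0.88 ± 0.342 over saline (adjusted p = 0.998), neither of which passed the test. MiR-342-3p, an abundant strand at 676 CPM on average, was 0.49 ± 0.212 above saline in LPS + GAS with no overlap (adjusted p = 0.998), and its partner miR-342-5p was at -0.17 ± 0.342. Groups did not overlap for 1 of the 7 in LPS + GAS vs LPS and 2 of the 7 in LPS + GAS vs saline. Of all miRNAs tested, 8.6% and 7.32% did not overlap there. The exact two-sided permutation test gave p = 0.1 for each of these, the smallest value that 3 against 3 libraries allow. MiR-21a-5p was at -0.40 ± 0.290 for LPS over saline and 0.51 ± 0.290 for LPS + GAS over LPS (adjusted p = 0.992 and 0.903).

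Whether the 4 members varied together was examined over the 9 libraries, as 10 relations of log2(CPM + 1), 6 between members and 4 with miR-451a. The arms of Mir142 had Pearson's r = 0.857 (exact permutation p = 0.00295, adjusted p = 0.0295) and Spearman's rho = 0.783 (exact permutation p = 0.0172, adjusted p = 0.0861). Without the 2 libraries farthest from the median level of mmu-miR-142a-3p, saline replicate 3 and LPS replicate 2, r was 0.837 (adjusted p = 0.0982, exact permutation). mmu-miR-142a-3p and mmu-miR-223-3p had r = 0.651 and rho = 0.717 (adjusted p = 0.192 and 0.0922, exact permutation), and r = 0.533 without the same 2 libraries. mmu-miR-142a-5p and mmu-miR-223-3p had r = 0.465 and rho = 0.333 (adjusted p = 0.295 and 0.482, exact permutation), and 0.17 without LPS replicate 2 and LPS + GAS replicate 3.

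Relations of mmu-miR-150-5p with the other 3 did not pass the adjusted test. With mmu-miR-142a-3p it had r = 0.532 and rho = 0.717 (adjusted p = 0.266 and 0.0922, exact permutation), but r = 0.0178 without saline replicate 3 and LPS replicate 2. With mmu-miR-142a-5p r was 0.369 and rho 0.4 (adjusted p = 0.404 and 0.48, exact permutation), -0.339 without LPS replicate 2, and 0.84 with LPS + GAS replicate 3 left out as well. With mmu-miR-223-3p r was 0.0513 and rho 0.267 (adjusted p = 0.915 and 0.548, exact permutation), and 0.175 without LPS + GAS replicates 1 and 3. Under the label of a common leukocyte and microglial set, a relation that passed the adjusted test (on r, not on rho) was thus found between members for the miR-142a arms only, and each member is called here by its own name.

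mmu-miR-223-3p was also set against miR-451a, the most abundant miRNA of the red blood cell list. Its r was 0.826 (exact permutation p = 0.00772, adjusted p = 0.0386) and rho 0.8 (p = 0.0138, adjusted p = 0.0861, exact permutation), and r was 0.759 without LPS + GAS replicates 1 and 3 (adjusted p = 0.171, exact permutation) and 0.639 after the group means were taken out. Both miRNAs are high in LPS + GAS, so part of the pooled r is a difference between groups. Within groups there are 3 libraries each, too few for a value. For the other members r with miR-451a was 0.623 (mmu-miR-142a-3p), 0.495 (mmu-miR-142a-5p) and 0.193 (mmu-miR-150-5p), with rho of 0.55, 0.367 and 0.0833, none passing the adjusted test (exact permutation, adjusted p = 0.192 to 0.843). Without the 2 libraries farthest out these fell to 0.093, -0.126 and 0.185.

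**Figure D4:**
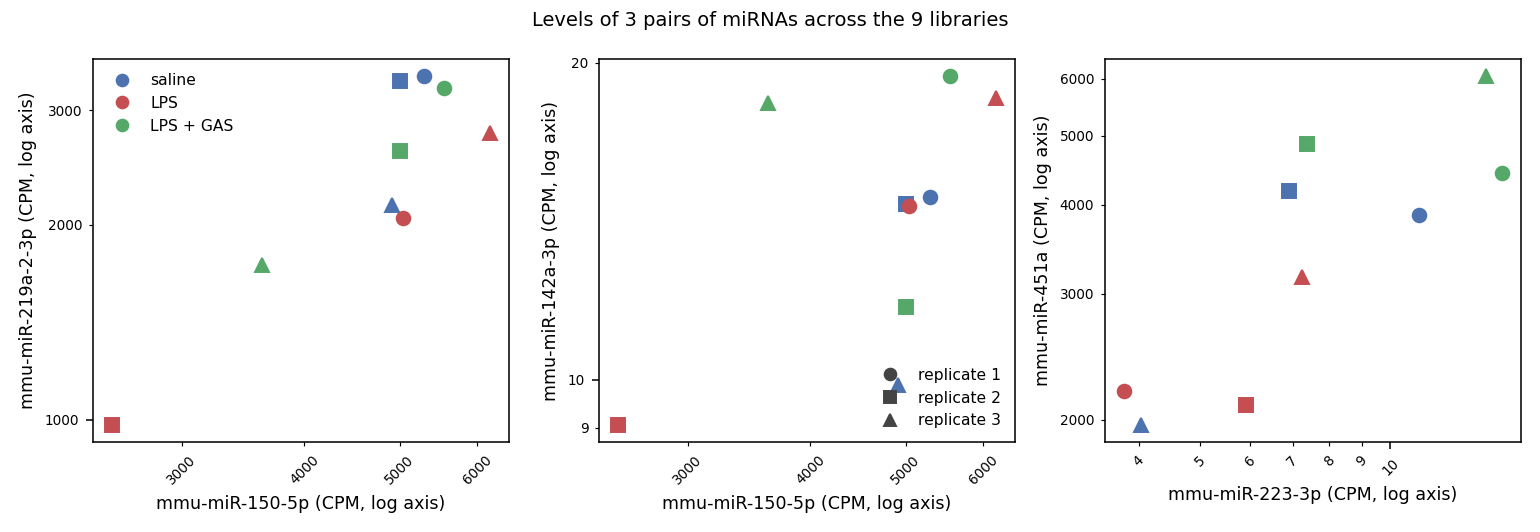
Levels of 3 pairs of miRNAs in the 9 libraries (CPM, both axes logarithmic), coloured by group and shaped by replicate number. LPS replicate 2 is the lowest library in the first and second panels, where r is 0.899 (miR-219a-2-3p) and 0.532 (mmu-miR-142a-3p); in the third, mmu-miR-223-3p and miR-451a have r = 0.826.

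The miRNAs most like each member over the 9 libraries, by r of log2(CPM + 1) among the 628 tested, are given as a description. For mmu-miR-142a-3p they were miR-24-1-5p (r = 0.961), miR-24-2-5p (0.895), miR-32-5p (0.894) and miR-190a-5p (0.883), with mmu-miR-142a-5p next at 0.857. For mmu-miR-142a-5p they were miR-190a-5p (0.923), mmu-miR-142a-3p and miR-190a-3p (each 0.857), miR-140-5p (0.806) and miR-203-3p (0.801). For mmu-miR-223-3p they were miR-214-5p (0.957), miR-211-5p (0.861), a strand of the choroid plexus list, miR-451a (0.826) and miR-15b-5p (0.811). None of the 4 members was thus nearest to another member, and all these values share the 9 libraries and their scaling. MiR-214-5p was counted at 0.403 to 2.31 CPM.

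For mmu-miR-150-5p the nearest were miR-3065-3p (r = 0.960), miR-338-5p (0.935), miR-219a-2-3p (0.899) and miR-219b-5p (0.879). MiR-338 and miR-219 are known from oligodendrocytes, the myelin-forming cells, where they promote maturation. Those 4 strands are not 4 separate loci, since Mir3065 shares 87 bases with Mir338 on the opposite strand of chromosome 11, and Mir219b shares 65 bases with Mir219a-2 on the opposite strand of chromosome 2. LPS replicate 2 bore on each value, which fell to 0.914, 0.768, 0.685 and 0.595 without it. In that library miR-219a-2-3p was at 982 CPM, against 1732 to 3384 CPM in the others, and mmu-miR-150-5p at 2547 CPM, against 3622 to 6182 CPM. The 3 miRNAs of the oligodendrocyte list had a median r of 0.755 with mmu-miR-150-5p (from 0.74 to 0.899). The 7 tested leukocyte miRNAs had one of 0.254 (from -0.5 to 0.644). Without LPS replicate 2 the 3 oligodendrocyte values were 0.685 (miR-219a-2-3p), 0.341 (miR-219a-5p) and 0.371 (miR-338-3p). The leukocyte median was not taken without that library.

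Across lists, mmu-miR-223-3p had its highest median r with the red blood cell list (0.773, from 0.721 to 0.826 over 5 miRNAs) and then with the choroid plexus and ependyma list (0.649 over 9). mmu-miR-142a-3p and mmu-miR-142a-5p were also highest with the red blood cell list (0.623, from 0.316 to 0.782, and 0.495, from 0.14 to 0.777). Other lists lay close behind. For mmu-miR-142a-3p the oligodendrocyte list had 0.562 and the choroid plexus and ependyma list 0.53. For mmu-miR-142a-5p the vascular list had 0.403 and the choroid plexus and ependyma list 0.383. Against all other tested miRNAs the medians lay between -0.03 and 0.05. The oligodendrocyte list summed to 2858 to 4818 CPM in saline, 1443 to 3648 CPM in LPS and 2505 to 4640 CPM in LPS + GAS, with median log2 fold changes of -0.61 for LPS over saline and 0.46 for LPS + GAS over LPS, and 0 of 3 called. Without LPS replicate 2 these medians were -0.34 and 0.23, and without LPS replicate 3 they were -0.93 and 0.74. These lists share libraries, members of 1 list share hairpins, and the share of any cell type in a member's level was not tested.

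**Figure D5:**
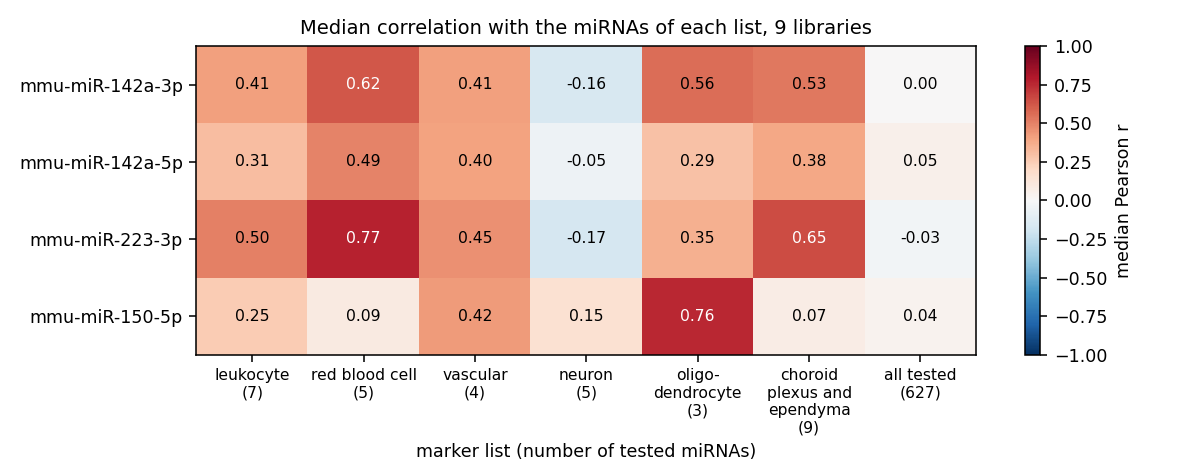
Median Pearson r over the 9 libraries between each of the 4 miRNAs (rows) and the miRNAs of each marker list (columns, number of tested miRNAs in brackets), coloured from -1 in blue to 1 in red. The highest cells are mmu-miR-223-3p with the red blood cell list (0.77) and mmu-miR-150-5p with the oligodendrocyte list (0.76), and the column of all tested miRNAs lies near 0.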

How the data were processed

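The 9 small RNA libraries of mouse hippocampus (BGISEQ-500) were analysed. The authors deposited raw read counts per mature miRNA for each library, not normalized. The submitters' processing notes name the genome build GRCm38.p6, and the aligner, the counting tool and the miRBase release were not given in the sources used here. A second set of deposited counts, named exp, holds whole numbers that never exceed the reads, and how the authors made them is not stated. The deposited table also has the authors' group averages and their DESeq2 comparisons, which were not used.

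Libraries were grouped by their labels and mapped by column name, which left 0 value columns unmapped. The labels number the replicates without saying that each is a separate animal, so p-values measure only the spread between these libraries, which may be technical. Rows reaching 10 reads in 3 or more of the 9 libraries were kept (628 of 1448), scaled by TMM and fitted in 1 model with a mean per group in edgeR 4.0.16 (glmQLFit, glmQLFTest, R 4.3.3), with Benjamini-Hochberg adjustment over the 628. In "all LPS-injected vs saline" the contrast is the mean of both LPS groups minus saline. CPM in correlations and permutation tests were taken as log2(CPM + 1), and exact tests were two-sided (scipy 1.17.1). Alternatives were DESeq2's size factors, the Wald test of DESeq2 1.42.0, limma 3.58.1 with voom, no filter, at least 50 reads, the exp counts, the replicate number as a block, only the groups compared, and each library left out in turn. The edgeR, DESeq2 and voom steps were tested on simulated data. Hairpins were taken from RefSeq on GRCm38.p6 and genes from GENCODE M21, with coordinates counted from 1.

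The members, the marker lists and the rule for named miRNAs were chosen with earlier results of these data known. The rule names the members, the leukocyte list, up to 3 miRNAs of each other list, the 4 miRNAs most like each member, rows with a member's seed, and called miRNAs. Any further miRNA was picked with its values in view. Deviations from the group means of same-numbered libraries had correlations of 0.296, 0.329 and 0.37 between LPS + GAS and saline. The values were 0.317, 0.209 and -0.284 for LPS vs saline and -0.109, 0.0466 and -0.274 for LPS + GAS vs LPS. Libraries of different numbers were not correlated beside them, and no source used here pairs libraries by number, so no pairing was established.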

Additional observations from a re-analysis of the deposited data

How the results depend on the processing

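The members' fold changes kept their direction and stayed short of the threshold in 124 of 124 alternatives that kept all libraries, and in 131 of 144 that left out 1 library. With 1 library left out, log2 fold changes in LPS vs saline ranged from -0.15 to 0.36 for mmu-miR-142a-3p, from -0.14 to 0.53 for mmu-miR-142a-5p, from -0.67 to 0.086 for mmu-miR-223-3p and from -0.41 to 0.18 for mmu-miR-150-5p. In LPS + GAS vs LPS they ranged from 0.0010 to 0.48 for mmu-miR-142a-3p, from -0.053 to 0.65 for mmu-miR-142a-5p, from -0.23 to 0.32 for mmu-miR-150-5p and from 0.89 to 1.37 for mmu-miR-223-3p. In LPS + GAS vs saline mmu-miR-142a-3p ranged from 0.16 to 0.52, mmu-miR-142a-5p from 0.18 to 0.78, mmu-miR-223-3p from 0.44 to 1.19 and mmu-miR-150-5p from -0.17 to 0.12. In all LPS-injected vs saline mmu-miR-142a-3p ranged from 0.041 to 0.36, mmu-miR-142a-5p from 0.19 to 0.54, mmu-miR-223-3p from -0.11 to 0.64 and mmu-miR-150-5p from -0.26 to 0.064.

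The number of miRNAs called in LPS vs saline was 1 by the DESeq2 Wald test and 2 with no filter, and in all LPS-injected vs saline 2 with no filter. With 1 library left out it ranged from 0 to 1 in LPS vs saline, from 0 to 1 in LPS + GAS vs LPS and from 0 to 2 in all LPS-injected vs saline. The causes were not tested. With the replicate number as a block, mmu-miR-223-3p was at 1.05 in LPS + GAS vs LPS (adjusted p = 0.9465 by edgeR) and at 0.72 in LPS + GAS vs saline, and the block changed no call.

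The difference in the miR-142a-3p share ranged, with 1 library left out, from -3.48 to 1.64 points in LPS vs saline, from -3.19 to 2.93 in LPS + GAS vs LPS, from -4.57 to 2.40 in LPS + GAS vs saline and from -4.03 to 1.09 in all LPS-injected vs saline. Without the 2 libraries farthest from the median, r was 0.837 for the miR-142a strands (adjusted p = 0.0982, exact permutation), 0.759 for mmu-miR-223-3p and miR-451a (adjusted p = 0.171, exact permutation), and -0.126 for mmu-miR-142a-5p and miR-451a. Over the 9 libraries, counting alone gave the miR-142a and miR-223 levels a coefficient of variation of 8.35% to 11.9%, and more in the libraries with fewest reads.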

Other observations

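The lowest 3p shares of Mir142 were those of the 3 libraries numbered 3, 1 in each group. In libraries numbered 3 the mmu-miR-142a-3p share was 43.4% to 49.7%, and in those numbered 1 and 2 it was 51.6% to 57.4% and 54.6% to 56.2%. This was noticed after the values were seen and has no test, and the sources used here do not say what libraries of the same number share.

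The exp counts of mmu-miR-150-5p were 73.6% to 84.9% of its read counts, lowest where its reads were most numerous and highest in LPS replicate 2. Those of the other 3 members, with far fewer reads, were 98.9% to 100.0%. Such a gap was not particular to mmu-miR-150-5p among abundant miRNAs. The exp counts were 71.93% to 89.05% of the reads for miR-451a and 18.84% to 30.78% for miR-124-3p. Each was lowest in the library where its own reads were most numerous.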
